A study of Mus musculus with 2 samples.

Results

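The genes described here are those of the EGR (early growth response) transcription factors and of the NAB proteins that repress through them, measured in bone marrow-derived dendritic cells (BMDCs). They are Egr1, Egr2, Egr3, Egr4, Nab1 and Nab2, and their probes were found by the transcript accession printed with each spot. Of these 6 genes, 5 had a probe, with 8 probes in all, among 34565 named probes of 23786 genes. No probe carried an accession of Nab1, so Nab1 has no value here. RNA was read from C57BL/6J BMDCs on 2 one-colour arrays. The first sample is labelled Egr1-deficient and the second WT, and both are labelled male. For both, marrow was taken from femurs, grown with the cytokine GM-CSF at 10 ng/ml and collected on day 6. The sources used here give neither the Egr1 allele nor the number of mice behind a sample or any pooling. There was 1 array for each label, so no difference has a replicate check, and no test of genotype is possible.

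EGR proteins bind GC-rich DNA through zinc fingers. Their genes are immediate early genes: a stimulus that activates the ERK kinase cascade switches them on through serum response factor (SRF), which binds CArG boxes, without new protein synthesis. NAB1 and NAB2 dock on the inhibitory domain of EGR proteins and recruit repressors, and because EGR proteins can switch on NAB genes the pair forms a feedback loop. In myeloid cells EGR1 and EGR2 are known for their part in the macrophage side of the choice between macrophage and neutrophil.

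Values are the scanner program's processed intensities on a linear scale, given with that program's own error estimate, which covers 1 spot and no biological variation. A spot counts as well above background by the program's call, and the lowest such signal was 13.3 in the sample labelled EGR1-deficient and 16.3 in the WT sample. Differences are EGR1-deficient minus WT in log2 units, after each array was set relative to its 75th percentile (191.6 for the sample labelled EGR1-deficient and 183.0 for WT). Each array held 59305 non-control spots, and 59.8% were well above background in the sample labelled EGR1-deficient, against 55.2% in the WT sample. No spot was saturated, and none of the 8 probes was marked as an outlier. All 10 dendritic cell markers checked, among them Itgax, Flt3, Zbtb46 and the MHC class II genes, were well above background on both arrays. So were all 8 macrophage, 5 monocyte, 8 neutrophil and 6 eosinophil, basophil and mast cell markers. Passing this call therefore does not set dendritic cells apart from these other cell types. The sex label was checked with 5 genes. Xist, made in female cells, read 4559 in the sample labelled EGR1-deficient and 3425 in the WT sample, although both are labelled male. Of 4 Y-linked genes, Ddx3y, Kdm5d and Uty did not pass the background call on either array, while Eif2s3y did, dimly, at 27.1 in the sample labelled EGR1-deficient and 25.6 in the WT sample.

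Egr1, which encodes the founding member of the family and lies on chromosome 18, was higher in the sample labelled EGR1-deficient. Its single probe (transcript NM_007913) read 1212 ± 121 in the sample labelled EGR1-deficient and 379.7 ± 38.2 in the WT sample, where ± is the scanner program's error. The 2 readings are further apart than their errors, and both lie far above background. The difference was 1.61 ± 0.20 log2 units, or 3.05-fold. Before background subtraction the median pixel of the spot was 1185 against a local background of 38 in the sample labelled EGR1-deficient, and 390.5 against 36 in the WT sample, so the local backgrounds were alike. The 81 spots above background within 6 rows and 6 columns of the Egr1 spot had a median difference of −0.04, and the highest of them reached 0.90. The sources used here do not say where this probe lies relative to the altered part of the gene, and a probe outside a deleted part checks nothing about the label. Whether the 2 labels were exchanged was not tested. All directions below follow the labels as given.

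**Figure D1:**
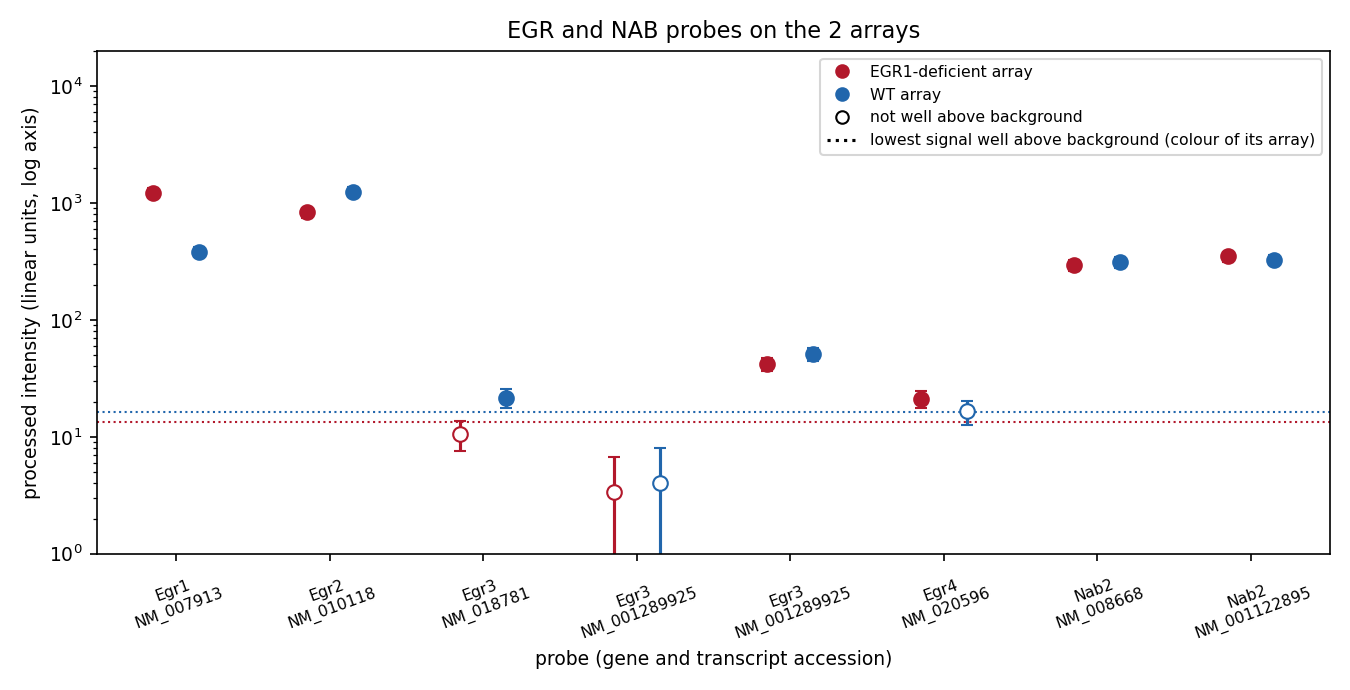
Processed intensity (log axis, linear units) of each of the 8 EGR and NAB probes in the sample labelled EGR1-deficient (red, left of each pair) and the WT sample (blue, right). Bars are the scanner program's error, drawn down to the axis where they would pass it; hollow points were not well above background and dotted lines mark 13.3 and 16.3, the lowest signals well above background. Egr1 is higher in red, Egr2 is higher in blue, and the pairs of both Nab2 probes lie close together.

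Set against all genes, Egr1 stood far out. Of 13725 genes well above background on both arrays, 235 (1.71%) were at least 2-fold apart, 97 (0.707%) higher in the sample labelled EGR1-deficient and 138 (1.01%) lower. Egr1 was the 26th highest difference. The split depended on the scaling: it was 77 higher against 174 lower after quantile normalization, 75 against 176 after loess, 123 against 122 with no scaling, 124 against 122 when scaled on spots above background, and 102 against 67 with the authors' series table. Large differences were mostly those of dim genes: with a mean signal at the 75th percentile or brighter, 9 genes were at least 2-fold higher and 14 lower. Among the 3120 genes whose mean signal lay within 2-fold of Egr1's, 3 were as far apart as Egr1. The other two, named after their values were seen, were lower in the sample labelled EGR1-deficient: Retnla, a secreted protein of alternatively activated macrophages (235 there against 2269 in the WT sample), and the eosinophil ribonuclease gene Rnase2a (289.2 there against 875 in the WT sample). Egr1 thus had the highest difference of the genes at its signal.

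**Figure D2:**
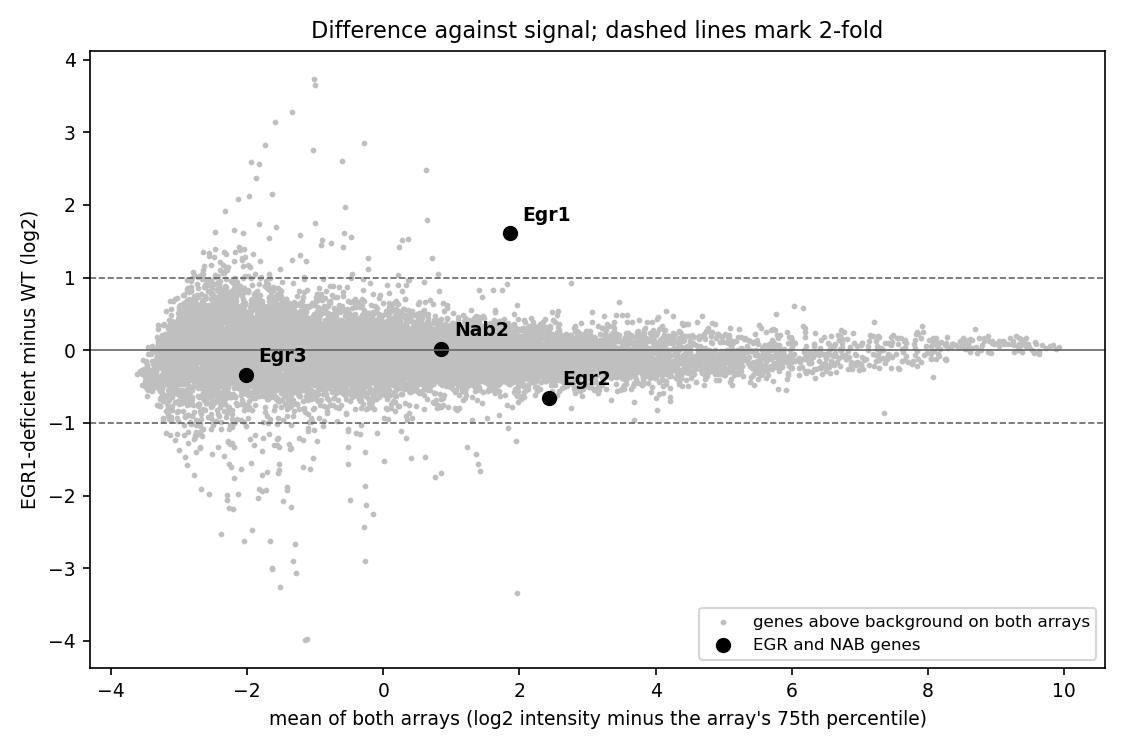
Each grey point is 1 of 13725 genes well above background on both arrays, by its mean scaled log2 intensity (x axis) and its difference, EGR1-deficient minus WT (y axis, log2); black points are Egr1, Egr2, Egr3 and Nab2, and dashed lines mark 2-fold. The cloud narrows toward bright genes, and Egr1 at 1.61 lies above it, whereas Nab2 at 0.02 lies inside it.

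Egr1 has 1 probe, so no further probe checks its reading. How often a second probe bore out a 2-fold difference can be seen in other genes. Of 3571 genes with 2 probes above background on both arrays, 78 had a probe at least 2-fold apart, and in 3 of these both probes were, in the same direction. Of 2409 such genes whose brighter probe was at or above the 75th percentile, as that of Egr1 is, 33 had a probe at least 2-fold apart. In 0 of them did both probes reach 2-fold in the same direction. The probe past 2-fold could be the dimmer of the pair. These counts therefore do not give how often a reading as bright as that of Egr1 was borne out. Over all 3571 genes, the SD between the differences of both probes had a median of 0.17 and a root mean square of 0.31 log2 units, against the 1.61 of Egr1. Repeated spots of 1 probe were closer: the SD of their difference had a median of 0.07 over 282 probes.

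Egr2, also called Krox20, binds the same DNA motif as EGR1 and is made in macrophages. It went the other way. Its single probe (NM_010118, chromosome 10) read 828 ± 82.9 in the sample labelled EGR1-deficient and 1245 ± 125 in the WT sample. These readings are also further apart than their errors, lower in the sample labelled EGR1-deficient, but by less than 2-fold. The difference was −0.65 ± 0.20, which is 1.57-fold higher in WT. Of all genes above background on both arrays, 5.53% were at least as far apart, so by that count Egr2 was unremarkable. At its own brightness it was less ordinary, since 19 of the 2529 genes within 2-fold of its mean signal were at least as far apart, 13 of them lower in the sample labelled EGR1-deficient. The 93 neighbouring spots had a median difference of −0.08 and a lowest value of −2.25. The difference of Egr1 exceeded that of Egr2 by 2.26 ± 0.29 log2 units, or 4.80-fold, where ± combines the scanner errors alone.

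Markers of several other cell types also differed between the arrays, in both directions. All 8 macrophage markers checked (Adgre1, C1qa, C1qb, Cd68, Csf1r, Fcgr1, Mertk and Mrc1) were below 0, from −0.58 to −0.06 with a median of −0.36, and their signals summed to 25946 in the sample labelled EGR1-deficient and 32058 in the WT sample. Of 6 eosinophil, basophil and mast cell markers 5 were below 0, with a median of −0.52 and the lowest, Prg2, at −0.69, and their signals summed to 3552 in the sample labelled EGR1-deficient and 4852 in the WT sample. None of these 14 markers reached 2-fold, and over all genes above background on both arrays 57.4% were below 0. Monocyte markers had 3 of 5 below 0 and neutrophil markers 4 of 8. On the side of Egr1, 2 of 7 stromal markers were above background on both arrays, Col1a2 at 1.05 and Pdgfrb at 0.99. Another 3 were above it in the sample labelled EGR1-deficient only, as were 5.45% of all genes, against 1.62% in the WT sample only. Of these 3, Col3a1 read 16.1 there, below 16.3, the lowest signal well above background in the WT sample, so its direction is not bounded. Lum and Pdgfra were above background on neither array. Of lymphoid markers above background on both arrays, 1 of 3 T and NK cell markers and 2 of 4 B cell markers were below 0, and 1 of 4 erythroid markers was above background at all. The part of any of these cells in the Egr1 and Egr2 differences was not tested. In bulk RNA, fewer cells of a type and less RNA per cell cannot be told apart.

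The Egr2 gene has several starts in RefSeq, and the table used here holds 5 windows for it of 250 bases before to 50 after a start (build GRCm38.p6). A CArG box, the site of SRF, was in 4 of these windows at 2 places. They are shown because SRF is the known route to EGR genes, with the box in capitals, 5′ to 3′ on the plus strand.
Egr2 CArG box at chr10:67537484-67537513: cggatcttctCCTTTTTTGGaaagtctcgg
Egr2 CArG box at chr10:67537787-67537816: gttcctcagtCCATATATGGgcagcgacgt
Of all 32851 windows in the table, 1.63% hold a CArG box on either strand. The full cAMP response element TGACGTCA, searched on both strands, was in 0 of the 8 windows found for Egr2, Egr4, Nab1 and Nab2, against 1.79% of all windows. No window was found for Egr3 or used for Egr1. A match is a run of letters and does not show that a factor binds there.

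Egr3, which encodes a factor known mainly from T cells and muscle spindles, was dim, and its 3 probes did not read alike. On chromosome 14, the probe of transcript NM_001289925 that was above background on both arrays read 42.2 ± 5.31 in the sample labelled EGR1-deficient and 50.9 ± 6.43 in the WT sample, a difference of −0.34 ± 0.26. A second probe of the same transcript read 3.37 in the sample labelled EGR1-deficient and 4.01 in the WT sample and did not pass the background call on either array. The probe of transcript NM_018781 read 10.6 ± 2.96 in the sample labelled EGR1-deficient, below the call, and 21.5 ± 3.93 in the WT sample, above it. There Egr3 was at least 1.69-fold lower in the sample labelled EGR1-deficient, taking the lowest signal well above background as its ceiling. That bound leaves out the scanner error, which was 0.48 log2 units on this probe's difference of −1.09. Under the normexp alternative described below the difference of this probe was −0.30, smaller than the bound. Both informative probes were thus lower in the sample labelled EGR1-deficient. At that brightness such differences were common: 41.3% of genes within 2-fold of its mean signal were at least as far apart as the first probe.

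Egr4, best known from neurons and germ cells, was at the limit of detection. Its probe (NM_020596, chromosome 6) read 21.1 ± 3.60 in the sample labelled EGR1-deficient, where it was well above background, and 16.5 ± 3.91 in the WT sample, where it was not. The measured ratio was 1.23-fold, higher in the sample labelled EGR1-deficient, a margin inside the errors of the readings. The WT reading lay above 16.3, the lowest signal well above background there, so no lower bound apart from this ratio was available. In log2 units the difference was 0.29, and it ran from 0.10 to 0.36 over 5 alternative ways of processing. Of 23786 genes, 5.45% were above background in the sample labelled EGR1-deficient only and 1.62% in the WT sample only, so a gene seen with the EGR1-deficient label alone was the commoner case.

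The co-repressor gene Nab2 read nearly the same on both arrays. One probe on chromosome 10 (NM_001122895) read 348.3 ± 35.0 in the sample labelled EGR1-deficient and 327.9 ± 33.0 in the WT sample, a difference of 0.02 ± 0.21. The other (NM_008668) read 293.5 ± 29.5 in the sample labelled EGR1-deficient and 310.2 ± 31.2 in the WT sample, a difference of −0.15 ± 0.21. Both differences are smaller than their errors and of opposite sign, 0.17 apart. In either probe a 2-fold change would lie outside the error of the readings, whereas one of the size of their errors could not be seen. The difference of Egr1 exceeded those of the Nab2 probes by 1.59 ± 0.29 and 1.75 ± 0.29.

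The promoter windows of the NAB genes differed in the motif bound by EGR proteins, GCGNGGGCG, which was searched on both strands. The Nab2 window, and those of Egr2 and Egr4, held 0 matches. The Nab1 window held 3, against 5.55% of all windows with any. They are given on the minus strand, the strand of the gene, with the motif (or its reverse complement) in capitals, because Nab1 itself could not be measured here.
Nab1 EGR motif at chr1:52500571-52500600: cgccccgcggcCGCCCACGCcgggatctgc
Nab1 EGR motif at chr1:52500539-52500568: cactcggccgcGCGTGGGCGggagccggag
Nab1 EGR motif at chr1:52500468-52500497: cgcggggcgggGCGGGGGCGgcggaggtgg
The matches begin 141, 109 and 38 bases before the start. They do not overlap, and whether EGR proteins occupy them in these cells was not measured.

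The genes known to drive EGR transcription lay near the median of all genes. All 20 (SRF and its partner factors, genes of the RAS-activated kinase cascade, ribosomal S6 kinases and Creb1) were above background on both arrays, 15 below 0 and 5 above, against 57.4% of all genes below 0. None reached 2-fold, a count near the 1.71% of all genes. Their median difference was −0.07, and that of all genes −0.05. Srf itself read 1436 in the sample labelled EGR1-deficient and 1519 in the WT sample (−0.15). The ternary complex factor gene Elk1 read 67961 in the sample labelled EGR1-deficient and 62663 in the WT sample (0.05, another probe 0.05). That is brighter than the actin gene Actb (29348 and 27576, in the same order), and whether the probe reads Elk1 RNA alone was not tested. The furthest was Creb1, which encodes a cAMP-responsive activator, at 539.9 in the sample labelled EGR1-deficient and 885 in the WT sample (−0.78). Another of its probes gave 0.19, so the Creb1 probes disagree in sign. Those of the SRF coactivator gene Mrtfb did too (−0.29 and 0.81).

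Partners through which NAB proteins repress, which are the CHD remodellers, the other subunits of the NuRD complex and its histone deacetylases, lay equally close. All 13 were above background on both arrays, 8 below 0 and 5 above, with a median of −0.08. None reached 2-fold, a count near the 1.71% of all genes, and 57.4% of all genes were below 0. Chd4, the remodeller that binds NAB2, read 1387 in the sample labelled EGR1-deficient and 1165 in the WT sample (0.19, another probe 0.03). The furthest were the NuRD scaffold genes Gatad2b (0.36, another probe 0.61), Mta1 (0.33) and Gatad2a (−0.27, another probe 0.15). Of 9 genes for factors whose GC-rich sites overlap those of EGR proteins, 8 were above background on both arrays, 5 below 0 and 3 above, with a median of −0.05. By the brightest probe, the furthest were Klf4 at −0.39, Sp3 at −0.19 and Sp4 at −0.15. Zfp148 was at 0.07 and Patz1 at 0.05, but another probe of each gave −0.42 and −0.29. Wt1, whose zinc fingers resemble those of EGR proteins, read 3.32 in the sample labelled EGR1-deficient and 4.04 in the WT sample and did not pass the background call on either array.

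**Figure D3:**
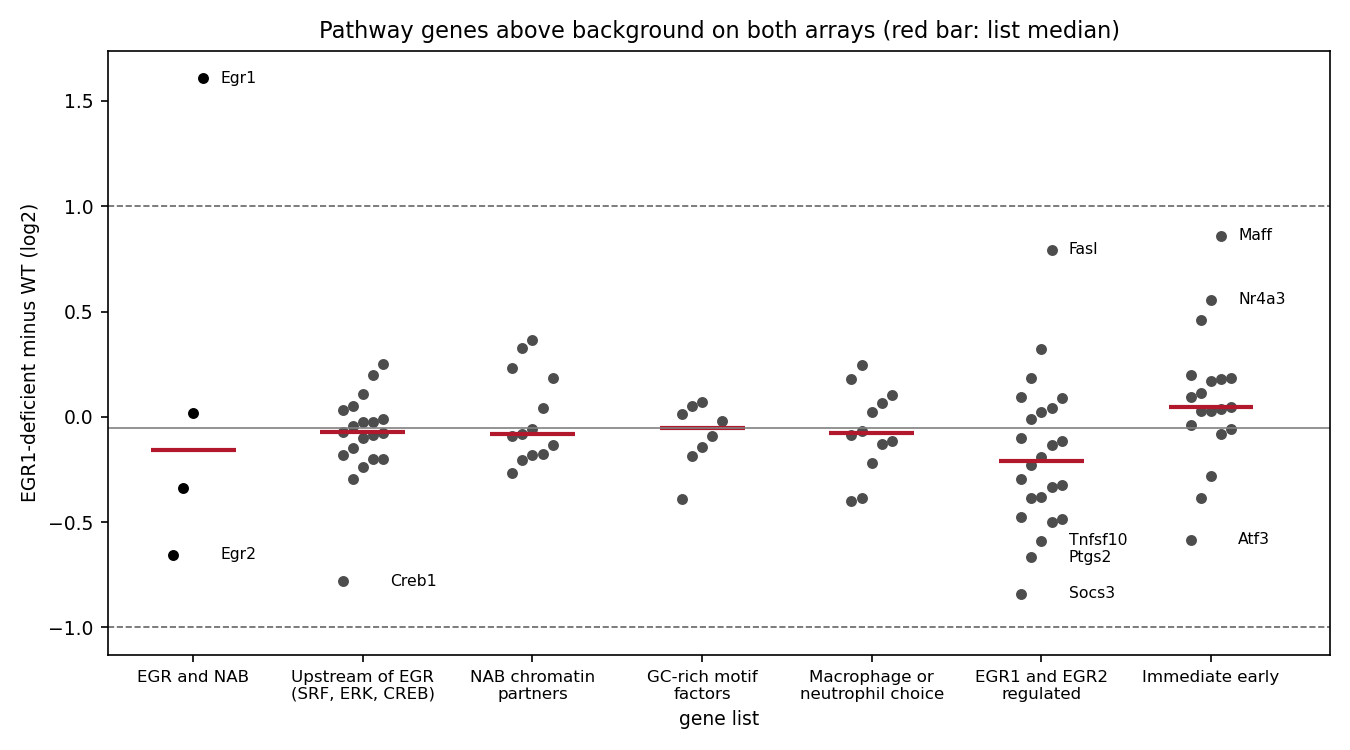
Difference (y axis, EGR1-deficient minus WT, log2) of every list gene above background on both arrays, by list (x axis); red bars are list medians, the grey line is the median of all genes (−0.05) and dashed lines mark 2-fold. Egr1 at 1.61 is the single point beyond 2-fold in the 7 lists.

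Genes tied to EGR and NAB in the choice between macrophage and neutrophil were all measured. Of the 12, 7 were below 0 and 5 above, with a median of −0.08, where 57.4% of all genes were below 0. None reached 2-fold, a count near the 1.71% of all genes. Spi1, which encodes the master regulator PU.1, read 1435 in the sample labelled EGR1-deficient and 1311 in the WT sample (0.06). Gfi1, a neutrophil-promoting repressor gene that EGR–NAB complexes are known to silence in mouse progenitors, read 164.3 in the sample labelled EGR1-deficient and 166.5 in the WT sample (−0.09); it was picked after its values were seen. The furthest members were on the macrophage side, the Fc receptor gene Fcgr1 at −0.40 and the M-CSF receptor gene Csf1r at −0.39 (another probe −0.05), and on the neutrophil side Cebpe at 0.25. Neither side kept to a single sign. On the macrophage side Cd14 was at 0.18 (another probe 0.28), and on the neutrophil side Elane was at 0.10 and Mpo at −0.13.

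Genes reported as regulated by EGR1 or EGR2 in blood cells and elsewhere had a lower median than all genes. Of 25, 24 were above background on both arrays, 17 below 0 and 7 above, with a median of −0.21, where 57.4% of all genes were below 0. None reached 2-fold, a count near the 1.71% of all genes. The cytokine-signalling inhibitor Socs3 read 161.4 in the sample labelled EGR1-deficient and 276 in the WT sample (−0.84), and the inducible cyclooxygenase gene Ptgs2 read 58.3 in the sample labelled EGR1-deficient and 88.4 in the WT sample (−0.67). Fasl, the death ligand gene that EGR2 and EGR3 are known to activate in T cells, went the other way, at 266 in the sample labelled EGR1-deficient and 146.5 in the WT sample (0.79). The tissue factor gene F3 did not pass the background call on either array.

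The other serum-responsive immediate early genes measured on both arrays differed by less than Egr1. Of 20, 19 were above background on both arrays, 6 below 0 and 13 above, with a median of 0.05, where 57.4% of all genes were below 0. None reached 2-fold, a count near the 1.71% of all genes. The largest differences were those of Maff and Atf3, which encode bZIP factors, and of the nuclear receptor gene Nr4a3. Maff read 48 in the sample labelled EGR1-deficient and 25.2 in the WT sample (0.86). Atf3 read 598 in the sample labelled EGR1-deficient and 855 in the WT sample (−0.58). Nr4a3 read 727 in the sample labelled EGR1-deficient and 472 in the WT sample (0.56, another probe 0.34). Fosl1 was well above background in the sample labelled EGR1-deficient only and was at least 1.40-fold higher there. Fos, Jun and Nr4a1, named after their values were seen, differed by 0.11, 0.20 and 0.04.

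With 2 arrays the pattern of a gene is a single difference, so likeness could only be ranked by its size. Next above Egr1 came Akr1d1 (1.63), Klrd1 (1.62) and Rep15 (1.62), and next below it Cel (1.58), Snrnp48 (1.56) and 4833417C18Rik (1.55). All 6 were dimmer than Egr1, and Akr1d1 and Rep15 read 18.8 and 25 in the WT sample, near its limit of 16.3. Around Egr2 the ranks were crowded: Faah, Rai14 and Smyd4 above it and Hdhd3, Trmu and Deptor below it all differed by −0.65 to −0.66.

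**Figure D4:**
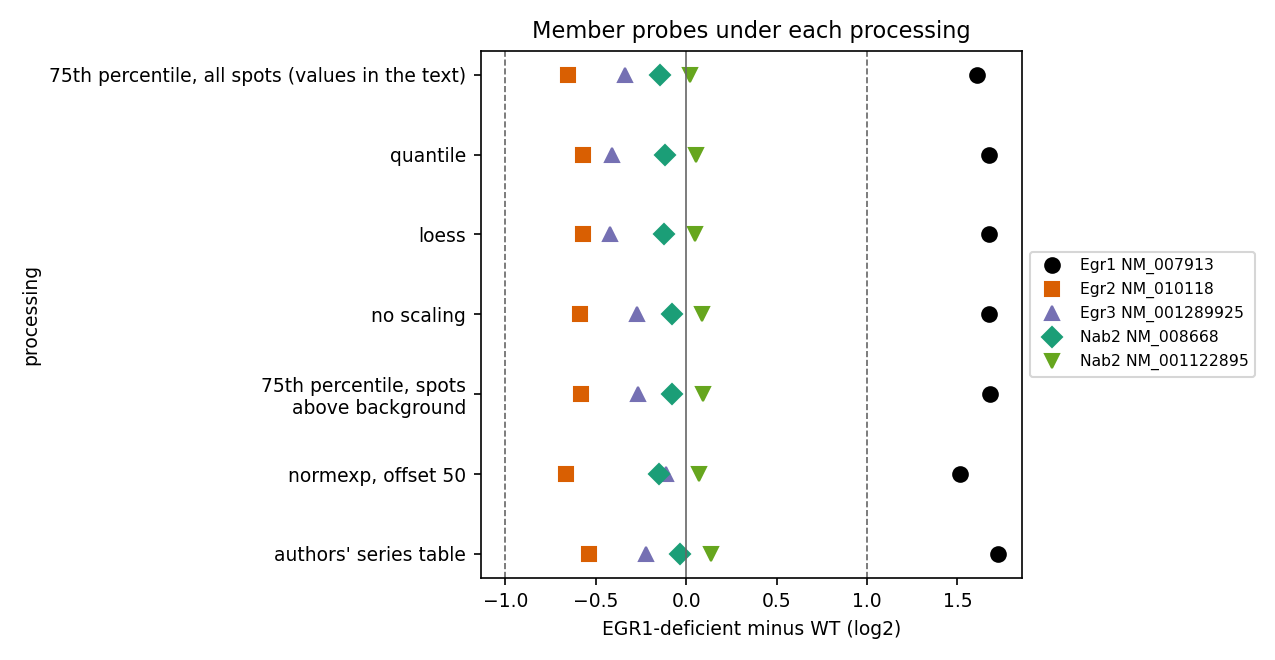
Difference (x axis, EGR1-deficient minus WT, log2) of the 5 EGR and NAB probes above background on both arrays under each processing (y axis, 1 line each); dashed lines mark 2-fold. Egr1 lies between 1.52 and 1.72 in every line shown and Egr2 between −0.67 and −0.54, while both Nab2 probes stay near 0.

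Other ways of processing the signals left the 2 main readings in place. Over the 6 alternatives run for each, the difference of Egr1 ran from 1.52 to 1.72 and that of Egr2 from −0.67 to −0.54. In the authors' series table, which lists intensities on another scale, Egr1 stood at 7484 in the sample labelled EGR1-deficient and 2267 in the WT sample, and Egr2 at 5114 in the sample labelled EGR1-deficient and 7433 in the WT sample. For Nab2 the range was −0.06 to 0.14, and it fell below 0 only when its probes were averaged. Its brighter probe alone stayed above 0 under every processing, and the other probe stayed below 0, from −0.15 to −0.03. Egr3 depended most on the processing, from −0.71 to −0.11.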

How the data were processed

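RNA of 2 BMDC samples was hybridised to one-colour (Cy3) Agilent arrays. Per the file headers, spots were read with Agilent Feature Extraction 12.1.0.3 (the submitters' processing notes name 11.5.1.1), and the processed intensity deposited by the authors is background-subtracted and detrended. The authors' series table of intensities equals it times 1 constant per array, 6.18 for the sample labelled EGR1-deficient and 5.97 for WT, of unstated origin.

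From there, control and outlier spots were left out, repeated spots averaged, and log2 intensity minus the array's 75th percentile was used. Probes were named by accession in a RefSeq table of assembly GRCm38.p6, which named 34565 probes and left 22038 unnamed; the array design uses mm9, so probe positions are not given. A gene was represented by its brightest probe. Genes named were the members, the 3 furthest of each list, those above background on 1 array, pathway anchors and rank neighbours. The members and lists were chosen with earlier results of these data known. The number of arrays limits the precision. The counting code was tried on simulated data with the same noise at every brightness. In these arrays the spread was wider for dim genes, so that trial does not bear on how reliable the counts are. The files have no mean spot signal, so the normexp alternative (offset 50, limma 3.58.1) used median signals. R 4.3.3, Python 3.11.15, numpy 2.4.6 and pandas 2.3.3 were used.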

Additional observations from a re-analysis of the deposited data

How the results depend on the processing

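Of 85 recomputed values over the alternatives planned, 75 moved by less than the spread between probes of a gene (an SD of 0.17 log2 units, or 1.5-fold for counts), and 10 moved further. After normexp, which changed the signal column, the background correction and the offset together, Egr3 came to −0.11 and Egr4 to 0.10, and the genes at least 2-fold apart numbered 18 higher and 32 lower in the sample labelled EGR1-deficient. Averaging the Egr3 probes above background on at least 1 array, which leaves out its dimmest probe, put Egr3 at −0.71. Without a filter on dim probes the counts were 1280 higher and 971 lower, and for genes as bright as the 75th percentile or brighter 9 higher and 14 lower. The series table, which lists fewer spots, gave 67 lower, and it shifted the median of all genes by 0.12. Relative to 0, the medians of the upstream, chromatin, GC-rich and macrophage or neutrophil lists changed sign under at least 1 scaling, while those of the EGR-regulated and immediate early lists kept theirs in all 6 alternatives. Signal near background limits Egr3 and Egr4. The series table does not list Egr4, so it gave no value there. No paired analysis was possible because each label has 1 array.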
